A study of Mus musculus with 24 samples.

Results

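The 42 genes described here are the machinery that moves proteins between the endoplasmic reticulum (ER) and the Golgi apparatus. They were taken by gene symbol from a list drawn up with earlier results of these data known, and they comprise the COPII coat, the COPI coat, Arf GTPases with an Arf GTPase-activating protein, SNAREs, Rab GTPases with a tether and Golgi membrane proteins, and cargo and retrieval receptors. Of the 42 genes, 40 had a probe on the Illumina Mouse-6 BeadChip in the probe table used here. Of those, 39 rose above the background level on enough arrays to be kept, among 13345 genes kept in all. Sec24a had a probe that stayed below the background level on all 24 arrays, and Sec23b and Arf1 were not analysed here because no probe carried their symbol.

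The study asked how loss of the ubiquitin ligases Siah1a and Siah2 alters the transcriptional response to ER stress and to ischemia-like stress. Mouse embryo fibroblasts (MEFs) were either knockout for both genes (KO, Siah1a-/-::Siah2-/-) or wild type (WT). Cells of each genotype were deprived of glucose for 12 h (GD), of oxygen for 12 h at 1% O2 (OD) or of both for 12 h (OGD), received thapsigargin (TG, 1 µM) or tunicamycin (TM) over 6 h, or were left untreated. Each of the 12 groups had 2 arrays, so 24 arrays in all, and the sources do not state that the duplicates were separate cultures, so the p-values measure the spread between arrays. The study calls MEFs of these genotypes litter-matched in blot legends and gives a 129/BL6 background for its Siah mice. Neither is stated for the arrayed cells, and the sources do not say how many embryos or lines stood behind each genotype. A legend elsewhere in the study describes the double mutant MEFs as heterozygous for Siah1a, while the array labels give both genes as knocked out.

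Newly made secretory proteins leave the ER in vesicles whose COPII coat is built by Sar1, Sec23 and Sec24 on the inside and Sec13 and Sec31 on the outside. COPI vesicles, whose assembly is driven by Arf1, carry escaped ER residents and cargo receptors back from the Golgi. SNAREs fuse the vesicles and tethers such as Uso1 hold them at the target membrane. Thapsigargin blocks the calcium pump of the ER and tunicamycin blocks N-linked glycosylation, and both load the ER with unfolded protein. The unfolded protein response (UPR) that follows works in part through XBP1 and ATF6, transcription factors known to act on genes of the secretory pathway.

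The labels were checked on marker genes. Of 10 fibroblast markers, 6 were above the background level on every array. The summed intensity of the 10 was 86730 to 160600 on the 12 KO arrays and 74490 to 95300 on the 12 WT arrays. None of the 6 epithelial, 5 endothelial and 3 blood cell markers measured was above it on every array. The epithelial sum, carried by Krt19, reached 1532 on KO arrays and 8030 on WT arrays, with the 4 highest sums on the WT OD and WT OGD arrays, and its part in the results below was not tested. The Siah1a signal was called lower in KO than in WT cells in all 6 conditions and the Siah2 signal in 3 of 6, and whether their probes lie in the deleted parts is not given in the sources used here. All 10 UPR genes of a check list were called higher under TG and under TM in both genotypes.

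Of the 9 genes called higher under ER stress, 3 carry the same promoter element, against 3 of 23 uncalled genes with a promoter window. The UPR element (UPRE) core, read here as TGACGTGG on either strand, is a site that XBP1 and ATF6 are known to bind. It was searched in RefSeq promoter windows of GRCm38.p6 that run from 250 bases before to 50 bases after an annotated transcript start. Windows were at hand for 35 of the 42 genes, and 7 of these (20%) held the core, against 222 of 32851 windows in the whole table (0.676%). Counted over genes with a kept probe and a window, the shares were 6 of 32 transport genes (18.8%) and 100 of 10742 genes in all (0.931%). Within the 250 bases before the start alone, 4 of 35 genes held it (11.4%), against 0.563% of all windows. The 3 windows that follow belong to Sec24d (chr3:123267246-123267545, plus strand), Kdelr3 (chr15:79516158-79516457, plus strand) and Stx5a (chr19:8741174-8741473, plus strand), shown because these genes were called under ER stress, with the core or its reverse complement in capitals. The core began 26 bases before the start in Sec24d, at -26, and at -30 in Kdelr3, while Stx5a held a pair of them after its start, at 10 and at 40. Another Stx5a window, at a different annotated start, held no core.
Sec24d: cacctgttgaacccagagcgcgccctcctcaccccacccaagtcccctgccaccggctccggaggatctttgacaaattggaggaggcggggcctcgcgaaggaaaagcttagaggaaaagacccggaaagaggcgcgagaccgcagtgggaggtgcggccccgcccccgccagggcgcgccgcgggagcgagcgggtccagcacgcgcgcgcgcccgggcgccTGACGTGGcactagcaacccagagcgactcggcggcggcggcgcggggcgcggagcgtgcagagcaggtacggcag
Kdelr3: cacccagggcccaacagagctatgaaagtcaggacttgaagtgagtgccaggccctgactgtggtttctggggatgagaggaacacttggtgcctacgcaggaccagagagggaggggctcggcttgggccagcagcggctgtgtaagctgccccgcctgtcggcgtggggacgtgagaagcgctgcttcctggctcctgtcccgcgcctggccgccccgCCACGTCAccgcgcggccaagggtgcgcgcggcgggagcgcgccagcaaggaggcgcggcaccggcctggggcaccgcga
Stx5a: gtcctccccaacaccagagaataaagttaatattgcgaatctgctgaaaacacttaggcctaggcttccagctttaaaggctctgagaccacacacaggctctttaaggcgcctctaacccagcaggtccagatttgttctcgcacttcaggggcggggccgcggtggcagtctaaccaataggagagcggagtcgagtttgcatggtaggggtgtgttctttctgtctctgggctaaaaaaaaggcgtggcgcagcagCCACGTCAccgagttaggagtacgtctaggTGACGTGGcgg

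The other measured genes with the core were Sec23a, Copb2 and Copb1, a COPII subunit and a pair of COPI subunits. Their sites are shown with 20 bases on each side, in the gene's own direction, from Sec23a (chr12:59011984-59012031, minus strand, core at 7), Copb2 (chr9:98563704-98563751, plus strand, core at -7) and Copb1 (chr7:114254681-114254728, minus strand, core at -28). Arf1, which was not measured, was the 7th gene.
Sec23a: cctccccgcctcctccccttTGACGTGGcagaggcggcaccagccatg
Copb2: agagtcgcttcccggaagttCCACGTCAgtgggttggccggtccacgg
Copb1: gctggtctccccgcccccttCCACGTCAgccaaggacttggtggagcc

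The CCACG letters that make up the last part of ER stress elements were common in the windows, in 26 of 35 transport genes (74.3%) and in 32.8% of all windows. The ACGTG letters, which overlap the UPRE core, stood in 25 of 35 (71.4%) and in 19.6% of all windows. The full ER stress elements ERSE and ERSE-II had no match in the windows of the 35 genes and stood in 0.119% and 0.0365% of all windows. The ATF4 element TTNCATCA was found in 1 of 35 (2.86%) and in 3.97% of all windows. A transport gene was counted once if any of its windows matched, while the shares of all windows count each window and include genes not kept here. A match is a description of letters in a window, not of binding. The 3 printed windows were 72.0%, 69.7% and 53.7% G and C, and the Sec24d window belongs to a transcript that starts inside the annotated gene.

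Under thapsigargin and tunicamycin a set of transport genes was higher than in untreated cells of both genotypes. The TG and TM arrays lay on other chips than the untreated arrays, so chip and treatment cannot be told apart. Under glucose or oxygen deprivation none passed the threshold without a replicate block. A gene is called here when the Benjamini-Hochberg adjusted p from limma, taken over all kept probes, was under 0.05 and the change was at least 2-fold. In KO cells 8 of 39 transport genes (20.5%) were called higher under TG, against 3.02% of all 13345 genes. Under TM 3 of 39 (7.69%) were called higher in KO cells, against 1.82% of all genes. In WT cells 8 of 39 were called higher under TG, against 2.11% of all genes, and 5 of 39 (12.8%) under TM, against 1.56%. The list was drawn up with earlier results of these data known, so these shares describe it and are no test of it. Among 88 other kept genes of the pathway, 7 were called higher in KO TG, 1 in KO TM, 3 in WT TG and 0 in WT TM. No transport gene was called lower in these 4 responses, where 2.31% of genes were called lower in KO TG, 1.36% in KO TM, 1.72% in WT TG and 1.00% in WT TM. In bulk cultures, a change in RNA per cell and a change in the kinds of cells cannot be told apart.

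The shift went beyond the called genes. The median log2 change of the 39 genes was 0.57 in KO TG, 0.40 in KO TM, 0.60 in WT TG and 0.45 in WT TM, while the median over all genes lay between -0.01 and 0.00. The change was above 0 for 36 of 39 genes in KO TG, 34 in KO TM, 35 in WT TG and 36 in WT TM. Over all genes it was above 0 for 48.2%, 49%, 49.9% and 49.5%, in the same order. At the adjusted p alone, without the 2-fold requirement, 13 genes were higher in KO TG (6.23% of all genes), 6 in KO TM (3.54%), 13 in WT TG (4.02%) and 10 in WT TM (2.71%). On that looser rule 1 gene, Sec24b, was lower in WT TG, against 3.52% of all genes.

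**Figure D1:**
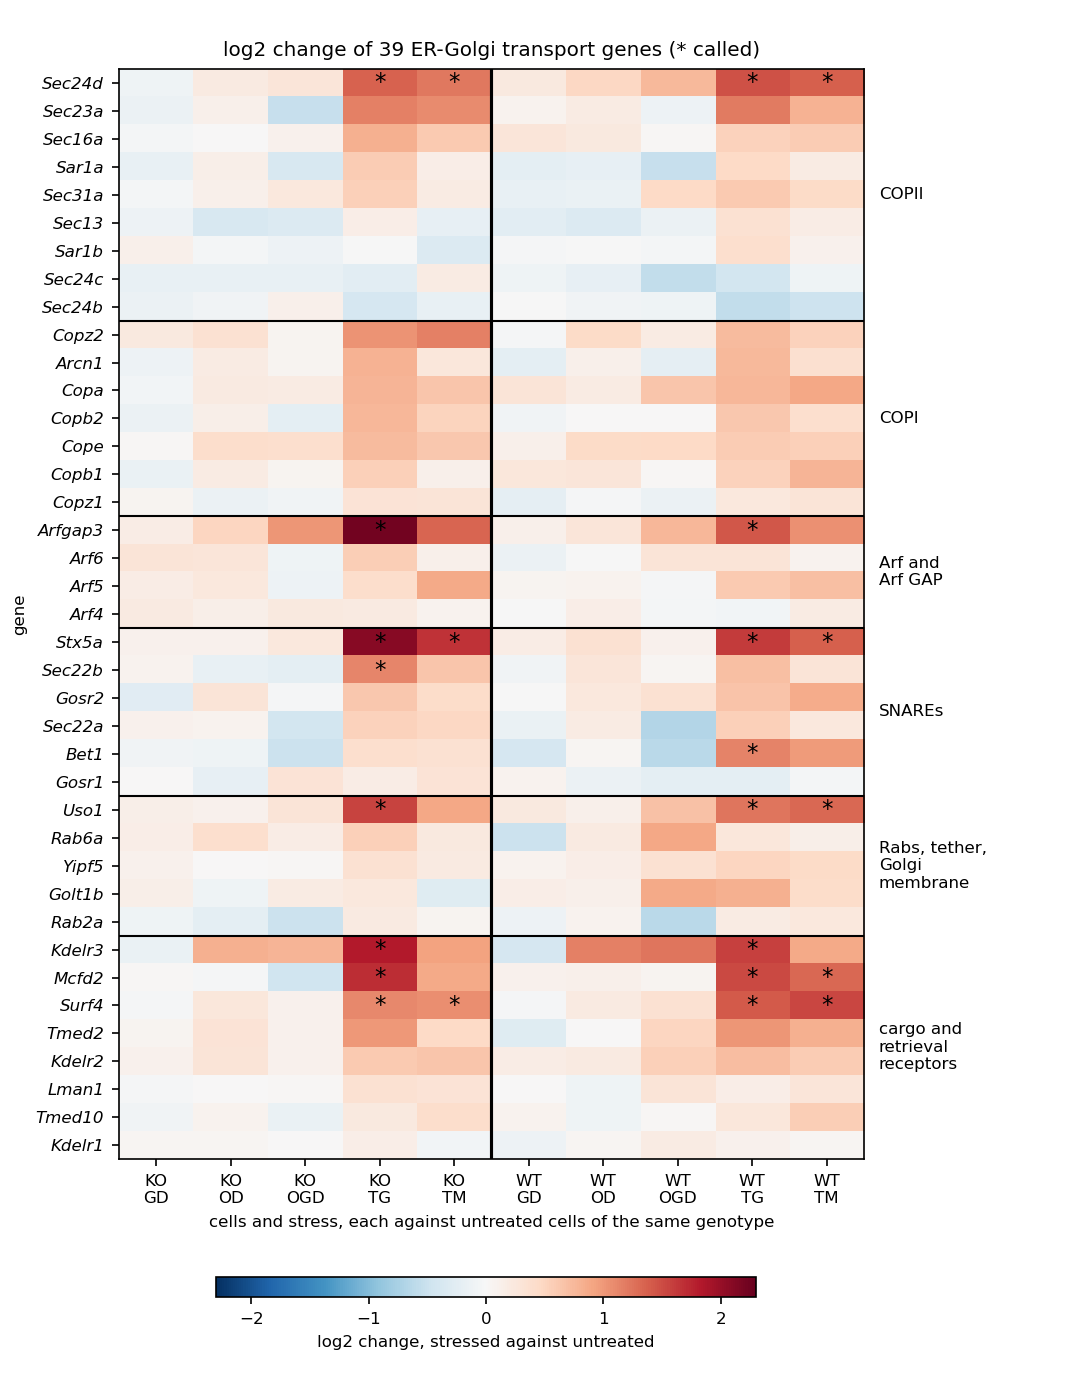
Heat map of the log2 change of the 39 kept transport genes (rows, grouped by role) in 5 stresses of KO cells and 5 of WT cells (columns), each against untreated cells of the same genotype, with red for higher and blue for lower. Asterisks mark calls, which all lie in the TG and TM columns and cover 9 genes.

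By the array positions that the study gives in a heat map, the untreated arrays of both genotypes, the GD arrays and the WT OD and WT OGD arrays shared one pair of chips, and the TG, TM, KO OD and KO OGD arrays shared another. Chip and treatment cannot be told apart in the TG and TM responses, nor in KO OD and KO OGD. Set against the KO OD arrays of the same chips, a comparison chosen after seeing the data, KO TG had 6 of 39 genes called higher (2.97% of all genes) with a median of 0.45, Surf4 (0.85) and Kdelr3 (1.00) being no longer called, and KO TM had 1, Stx5a (1.67% of all genes), with a median of 0.32.

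Of the 39 genes, 9 were called in at least 1 response and 7 in at least 2. Sec24d, Stx5a and Surf4 were called in all 4 ER stress responses, Mcfd2 and Uso1 in 3, Arfgap3 and Kdelr3 in 2, and Bet1 and Sec22b in 1. Across these 9 genes there were 24 calls, and 10 of the 24 held whichever single array was left out: the 4 of Stx5a, the 3 of Mcfd2, and those of Arfgap3 and Sec22b in KO TG and of Bet1 in WT TG. The other 14 calls were lost in at least 1 such fit, with the same direction.

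**Figure D2:**
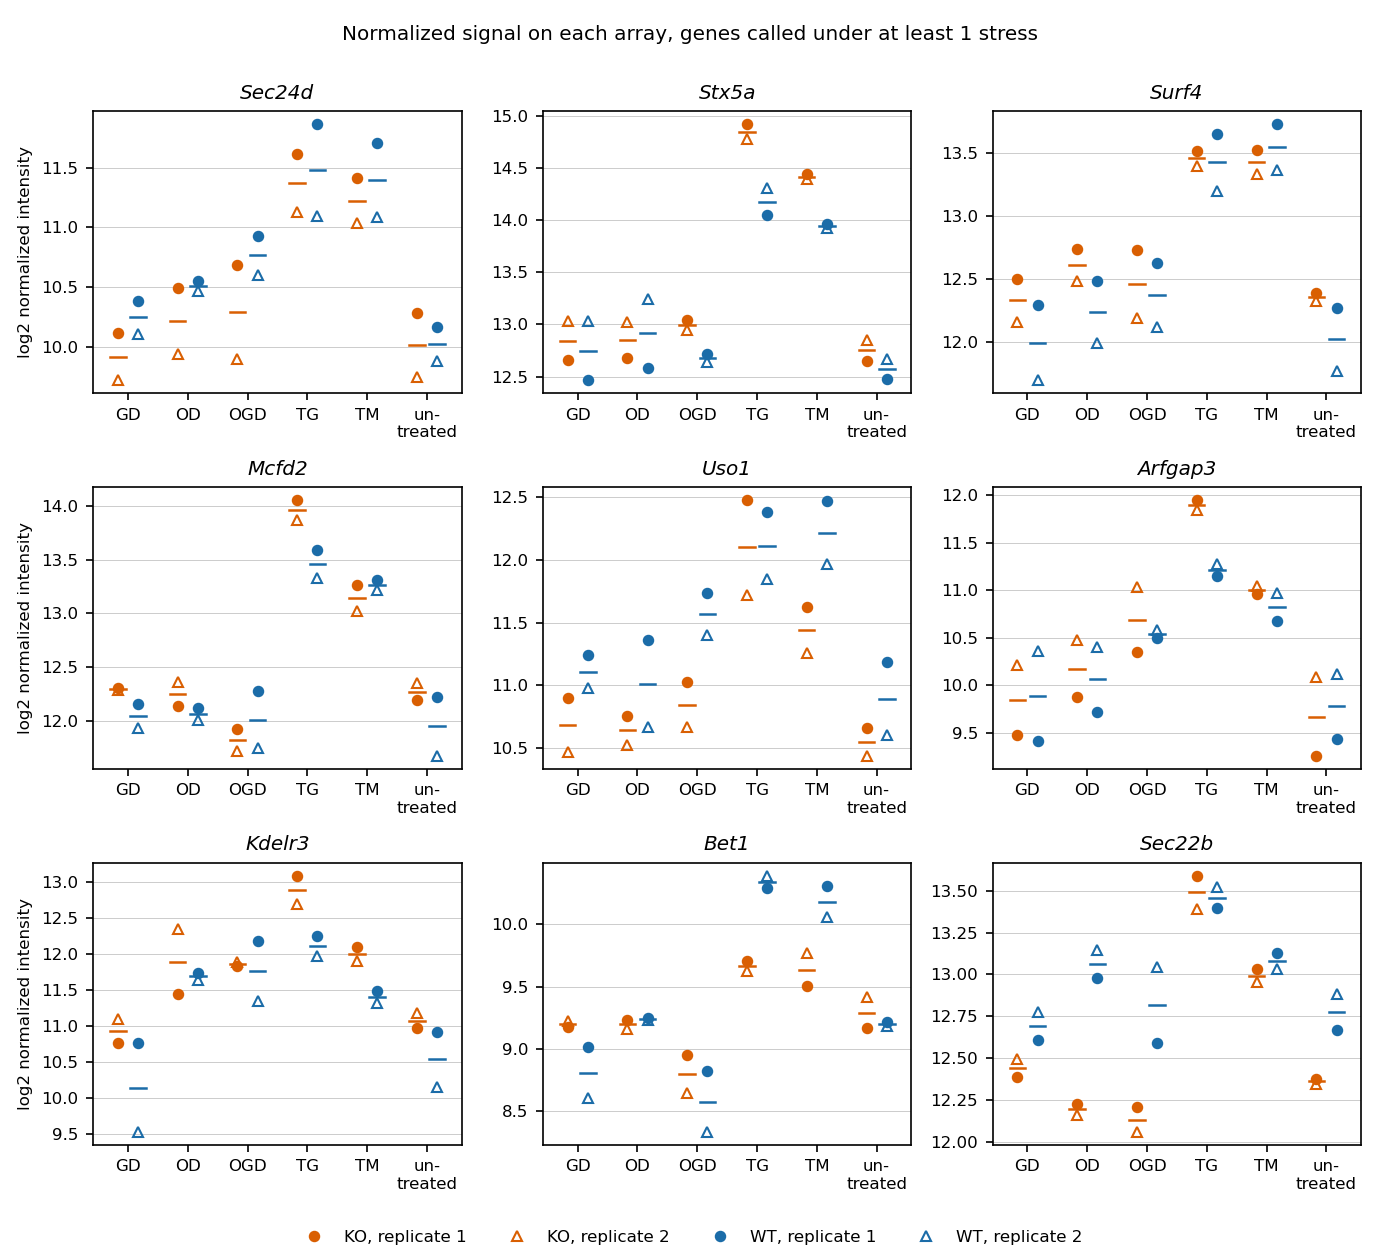
Normalized log2 intensity on each array for the 9 called genes, by condition, KO left and WT right, with filled circles for replicate 1, open triangles for replicate 2 and a line at the mean of the 2 arrays. Stx5a is the clearest case, with 21470 to 30980 on the KO TG and KO TM arrays and 6420 to 8459 on the other KO arrays, in linear units.

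Among the COPII genes, 1 of 9 kept genes was called under each ER stress in each genotype, and it was Sec24d, a cargo-binding subunit of the inner coat. Sec24d intensity was 3137 and 2238 on the KO TG arrays, 2728 and 2095 on the KO TM arrays and 1242 and 857 on the untreated KO arrays. In WT cells it was 3731 and 2183 under TG, 3334 and 2171 under TM and 1151 and 941 in untreated cells. Every TG and TM array was above every untreated array of its genotype. The log2 change was 1.36 in KO TG, 1.21 in KO TM, 1.46 in WT TG and 1.37 in WT TM (SE 0.324, n = 2 arrays per group), with limma adjusted p of 0.0143, 0.0438, 0.0128 and 0.0276. The KO TM call was lost, at an adjusted p between 0.0935 and 0.332, whichever of its 4 arrays was left out. The KO TG call was lost without KO TG replicate 1 (0.167) or KO untreated replicate 2 (0.130), the WT TG call without WT TG replicate 1 (0.205) or WT untreated replicate 2 (0.118), and the WT TM call without WT TM replicate 1 (0.341) or either untreated WT array (0.0696 and 0.203). A second Sec24d probe was above the background level on only 2 of 24 arrays and gave no usable comparison.

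Sec23a, the partner of Sec24 that activates the GTPase of Sar1, had a wide gap between duplicates. Its intensity was 635 and 1561 under KO TG, 668 and 1336 under KO TM and 258 and 764 in untreated KO cells. The WT arrays had 1190 and 1241 under TG, 829 and 1036 under TM and 357 and 795 in untreated cells. Replicate 1 was the lower array in each of these groups, and within each replicate number the stressed array was the higher one. The change of 1.17 in KO TG, 1.09 in KO TM, 1.19 in WT TG and 0.80 in WT TM did not pass the test (SE 0.746, adjusted p 0.432, 0.538, 0.497 and 0.785). With the replicate number as a block the KO TG, KO TM and WT TG responses were called, at adjusted p of 0.0172, 0.0348 and 0.0200 (SE 0.309).

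The other Sec24 paralogs did not follow Sec24d. Sec24b intensity was 2179 and 2003 in KO TG and 2716 and 2727 in untreated KO cells, a log2 change of -0.38 (adjusted p 0.106). In WT TG it was 2981 and 2839, against 4398 and 4193 in untreated WT cells, where it fell by 0.56 on the log2 scale at an adjusted p of 0.0226, under 2-fold. Sec24c changed by -0.24 in KO TG and -0.43 in WT TG, neither past the test. The outer coat genes Sec31a and Sec13, the exit site organizer Sec16a and the GTPases Sar1a and Sar1b also missed it, with changes between -0.31 for Sar1b in KO TM and 0.82 for Sec16a in KO TG.

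None of the 7 COPI genes was called at 2-fold, yet all 7 were above 0 in the 4 ER stress responses. Their median log2 change was 0.77 in KO TG, 0.51 in KO TM, 0.63 in WT TG and 0.54 in WT TM. Copa, the alpha subunit, had 14640 and 11350 in KO TG and 12590 and 10930 in KO TM, against 8081 and 7032 in untreated KO cells. Among WT arrays it had 9368 and 8983 under TG and 10720 and 9368 under TM, against 6405 and 4611 in untreated cells. Copa passed the adjusted p alone in all 4 responses (log2 change 0.77, 0.64, 0.76 and 0.88, SE 0.174, adjusted p 0.01, 0.0484, 0.0160 and 0.00902, in the order KO TG, KO TM, WT TG, WT TM).

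The beta prime subunit Copb2 and the delta subunit Arcn1 passed the adjusted p under TG in both genotypes. Copb2 rose by 0.77 in KO TG and 0.63 in WT TG (SE 0.151, adjusted p 0.00418 and 0.0211), and Arcn1 by 0.80 and 0.74 (SE 0.173, adjusted p 0.00801 and 0.0172). Copb1, the beta subunit, was dim, above the background level on 13 of 24 arrays, and passed in KO TG (0.56, adjusted p 0.0383) and WT TM (0.78, adjusted p 0.0111). The epsilon subunit Cope and the zeta subunits Copz1 and Copz2 did not pass, although Copz2 changed by more than 2-fold in KO cells, with log2 changes of 1.04 under TG and 1.16 under TM (SE 0.377, adjusted p 0.109 and 0.104).

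Arfgap3, a GTPase-activating protein for Arf1 that takes part in COPI uncoating, had the largest change of the 39 genes in KO TG. Its intensity was 3962 and 3680 in KO TG and 2001 and 2113 in KO TM, against 612 and 1088 in untreated KO cells. WT cells had 2268 and 2472 under TG and 1636 and 2005 under TM, against 694 and 1111 in untreated cells. No stressed array overlapped the untreated arrays of its genotype. The log2 change was 2.23 in KO TG and 1.43 in WT TG (SE 0.371, adjusted p 0.00119 and 0.0317), and 1.33 in KO TM and 1.04 in WT TM (adjusted p 0.0531 and 0.178). The replicate block added calls for Arfgap3 in KO TM (adjusted p 0.00136), WT TM (0.00946) and KO OGD (1.02, adjusted p 0.0187), and the WT TG call was lost whichever array was left out, at 0.0506 to 0.232. None of the measured Arf GTPases was called. Arf5 changed by 0.40 to 0.87 over the 4 responses, with untreated duplicates far apart (SE 0.634), so its response is unresolved. Arf6 changed by 0.08 to 0.56, not past the test. Arf4 was above the background level on only 7 arrays, so small changes could not be read.

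Of the 6 SNAREs, Stx5a was called in all 4 responses. Stx5a, the Golgi syntaxin that pairs with Bet1, Gosr2 and Sec22b in fusion of ER-derived vesicles, had 30980 and 28030 in KO TG and 22240 and 21470 in KO TM, against 6420 and 7405 in untreated KO cells. In WT cells it had 16910 and 20240 under TG and 15960 and 15550 under TM, against 5709 and 6499 in untreated cells. The stressed and untreated arrays were far apart in both genotypes. The log2 change was 2.10 in KO TG and 1.66 in KO TM, with 1.6 in WT TG and 1.37 in WT TM (SE 0.215, adjusted p 1.45e-05, 0.000318, 0.000338 and 0.00164). A second Stx5a probe was also called in all 4 responses, at 1.75, 1.27, 1.5 and 1.22.

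Bet1 and Sec22b were each called in 1 genotype only, which is not by itself a difference between genotypes. Bet1 had 838 and 790 in KO TG and 725 and 876 in KO TM, against 574 and 682 in untreated KO cells. The WT arrays had 1258 and 1344 under TG and 1266 and 1068 under TM, against 596 and 582 in untreated cells. The change was 0.38 in KO TG and 1.14 in WT TG (SE 0.175, adjusted p 0.234 and 0.00101), and 0.98 in WT TM, just under 2-fold (adjusted p 0.00469). The KO minus WT difference in the TG response was -0.77 (SE 0.248, 95% interval -1.29 to -0.24, adjusted p 0.363).

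Sec22b had 12330 and 10740 in KO TG and 8361 and 7925 in KO TM, against 5312 and 5204 in untreated KO cells. Among WT arrays it had 10780 and 11760 under TG and 8935 and 8389 under TM, against 6510 and 7551 in untreated cells. It rose by 1.13 in KO TG (SE 0.145, adjusted p 0.000124) and passed the adjusted p alone in KO TM (0.63, 0.0193) and WT TG (0.68, 0.00944). A second Sec22b probe gave 0.41 in KO TG, so the 2 probes differed in size, and the call was lost when the probes were averaged. Gosr2 passed the adjusted p in KO TG (0.62, adjusted p 0.0262), WT TG (0.65, 0.0269) and WT TM (0.84, 0.00800), while Sec22a and Gosr1 did not pass in any response.

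In the group of Rabs, tether and Golgi membrane proteins, only Uso1 was called. Uso1, also known as p115, is the long tether that holds vesicles at the cis-Golgi. It had 5717 and 3378 in KO TG and 3149 and 2450 in KO TM, against 1615 and 1383 in untreated KO cells. WT cells had 5349 and 3680 under TG and 5681 and 4002 under TM, against 2321 and 1551 in untreated cells. The change was 1.56 in KO TG, 1.23 in WT TG and 1.33 in WT TM (SE 0.307, adjusted p 0.00419, 0.0261 and 0.0244), and 0.89 in KO TM (adjusted p 0.123). Leaving out KO TG replicate 1 ended the KO TG call (0.0840), and both WT calls ended without WT untreated replicate 2 (0.240 in TG and 0.244 in TM) or without either stressed WT array (0.277 and 0.0506 in TG, 0.294 and 0.0543 in TM). Rab2a, Rab6a, Golt1b and the dim Yipf5, above the background level on 10 arrays, stayed between -0.28 and 0.81 with no value past the test.

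The receptors held the most calls. Surf4, an ER cargo receptor for soluble secretory proteins, had 11760 and 10790 in KO TG and 11780 and 10330 in KO TM, against 5376 and 5137 in untreated KO cells. In WT cells it had 12900 and 9430 under TG and 13620 and 10550 under TM, against 4942 and 3493 in untreated cells. No array of the stressed groups came near the untreated ones. The log2 change was 1.10 in KO TG, 1.07 in KO TM, 1.41 in WT TG and 1.53 in WT TM (SE 0.268, adjusted p 0.0166, 0.0317, 0.00487 and 0.00414). Both KO calls were lost whichever array was left out (adjusted p 0.0620 to 0.124 in TG and 0.102 to 0.244 in TM), and the WT calls were lost without WT untreated replicate 2 (0.0770 and 0.0729) or without replicate 1 of WT TG (0.0860) and WT TM (0.0792).

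Mcfd2 and Lman1 form one receptor for the export of coagulation factors V and VIII, but only Mcfd2 was called. Mcfd2 had 17060 and 14950 in KO TG and 9816 and 8311 in KO TM, against 4671 and 5220 in untreated KO cells. The WT arrays had 12310 and 10300 under TG and 10160 and 9519 under TM, against 4779 and 3255 in untreated cells. It rose by 1.69 in KO TG, 1.51 in WT TG and 1.32 in WT TM (SE 0.195, adjusted p 4.47e-05, 0.000235 and 0.00102), and by 0.87 in KO TM, under 2-fold (adjusted p 0.0164). Lman1 had 5548 and 5700 in KO TG against 4623 and 4244 in untreated KO cells, and 6068 and 5301 in WT TG against 5632 and 4576 in untreated WT cells. Its changes of 0.34 and 0.16 (SE 0.155) did not pass the test.

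Of the KDEL receptors, which return escaped ER chaperones in COPI vesicles, only Kdelr3 was called. Kdelr3 had 8742 and 6638 in KO TG and 4404 and 3853 in KO TM, against 2007 and 2325 in untreated KO cells. Among WT arrays it had 4895 and 4032 under TG and 2883 and 2556 under TM, against 1939 and 1137 in untreated cells. It rose by 1.82 in KO TG and 1.58 in WT TG (SE 0.374, adjusted p 0.00570 and 0.0188), while 0.93 in KO TM and 0.87 in WT TM did not pass. The KO TG call was lost without KO TG replicate 1 (0.0761) or KO untreated replicate 1 (0.0609), and the WT TG call without WT untreated replicate 2 (0.205) or either WT TG array (0.171 and 0.0797).

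Kdelr2 had 7458 and 12900 in KO TG against 4107 and 10120 in untreated KO cells, with duplicates far apart. Its changes of 0.58 to 0.71 did not pass (SE 0.516), which leaves its response unresolved. Kdelr1 was above the background level on only 2 arrays, so small changes could not be read. Among the p24 cargo receptors, Tmed10 passed the adjusted p alone in WT TM (0.56, adjusted p 0.0211). Tmed2 changed by 1.00 in KO TG and 1.02 in WT TG with wide duplicates (SE 0.555) and no call.

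**Figure D3:**
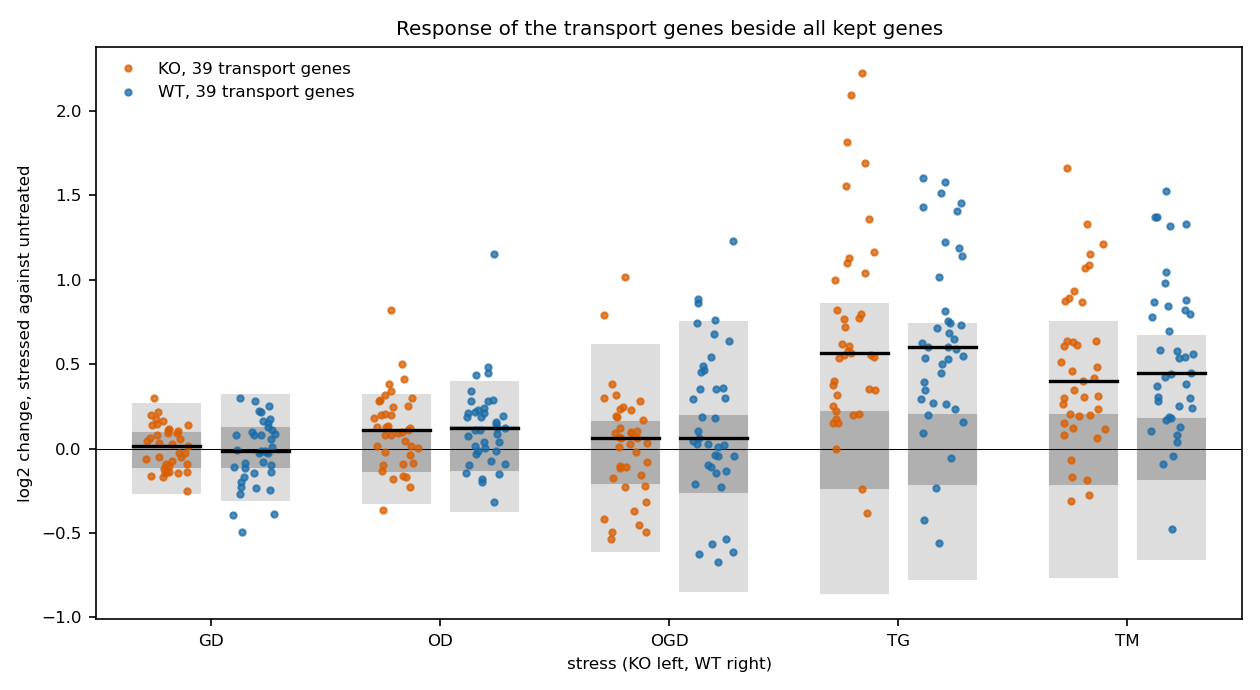
Log2 change of the 39 transport genes (points) in each stress, KO left and WT right, over bands that hold the middle 50% and 90% of all 13345 genes, with a black line at the median of the 39 genes. The medians stand at 0.57 and 0.60 in TG and 0.40 and 0.45 in TM, and between -0.02 and 0.12 in GD, OD and OGD.

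Glucose and oxygen deprivation brought no call among the transport genes in the fit without the replicate block. With the block, Arfgap3 in KO OGD (1.02, adjusted p 0.0187) and Kdelr3 in WT OGD (1.23, adjusted p 0.0261) were called. Without it, no gene was called higher or lower by limma under GD, where 0% of all genes were called higher and 0.00749% lower in either genotype, and at an unadjusted p under 0.05 there were 0 in KO cells (1.12% of all genes) and 1 in WT cells (2.38%). Under OD 0 of 39 were called, against 0.292% of genes higher and 0% lower in KO cells and 0.247% higher and 0% lower in WT cells, and 1 gene in each genotype had an unadjusted p under 0.05 (3.75% of all genes in KO cells and 5.13% in WT cells). Under OGD 0 of 39 were called in either genotype, against 0.997% higher and 0.300% lower in KO cells and 2.17% higher and 2.36% lower in WT cells. At an unadjusted p under 0.05 there were 4 genes in KO OGD (10.3%, against 14.9% of all genes) and 12 in WT OGD (30.8%, against 23.6%). The medians were 0.01 and -0.02 in KO GD and WT GD, 0.11 and 0.12 in KO OD and WT OD, and 0.06 in both OGD responses, while the medians over all genes lay between -0.02 and 0.00.

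Kdelr3 had the largest change of the 39 genes in KO OD, WT OD and WT OGD. It had 2794 and 5208 in KO OD and 3663 and 3802 in KO OGD, against 2007 and 2325 in untreated KO cells. WT cells had 3427 and 3192 under OD and 4654 and 2601 under OGD, against 1939 and 1137 in untreated cells. All OD and OGD arrays lay above the untreated arrays of their genotype, but the changes of 0.82 and 0.79 in KO cells and 1.16 and 1.23 in WT cells were not called (SE 0.374, adjusted p 1 in KO OD, 0.403 in KO OGD, 0.612 in WT OD and 0.0570 in WT OGD). Under GD it had 1738 and 2192 in KO cells and 1735 and 739 in WT cells, overlapping the untreated arrays of each genotype.

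After Kdelr3, the largest changes were 0.50 for Arfgap3 and 0.41 for Cope in KO OD, and 0.48 for Sec24d and 0.45 for Copz2 in WT OD. In KO OGD Arfgap3 changed most, by 1.02, with Kdelr3 at 0.79 and Sec23a at -0.54. The largest after Kdelr3 in WT OGD were 0.89 for Rab6a and 0.86 for Golt1b. Under GD the largest changes of all were 0.30 for Arf6, -0.25 for Gosr2 and 0.22 for Copz2 in KO cells. In WT cells they were -0.49 for Rab6a, -0.39 for Bet1 and -0.39 for Kdelr3. None of these was called without the replicate block, and with it Arfgap3 in KO OGD was. At the adjusted p alone, Copa was higher in WT OGD (0.63, adjusted p 0.0352; 4.08% of all genes) and Bet1 lower (-0.63, adjusted p 0.0394; 5.39% of all genes). Bet1 had 451 and 322 in WT OGD against 596 and 582 in untreated WT cells, the opposite direction to its change under TG.

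Between stresses on the same chips no transport gene was called: 0 of 39 in KO OGD against KO OD (0.367% of all genes), in KO TM against KO TG (0.405%), in WT OGD against WT OD (3.69%) and in WT TM against WT TG (0%). At an unadjusted p under 0.05 there were 3, 7, 6 and 3 of 39, in the same order, against 12.6%, 10.3%, 22.3% and 3.32% of all genes. TM values lay below TG values for 32 of 39 genes in KO cells, with a median of -0.20, and for 24 of 39 in WT cells, with a median of -0.13. TM was above TG for 17.9% of the transport genes in KO cells and 38.5% in WT cells. Over all genes the shares were 49.7% and 51.3%, with medians of -0.00 and 0.01. Among transport genes in KO cells the widest differences were those of Arfgap3 and Kdelr3, at -0.89 each, neither past the test.

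**Figure D4:**
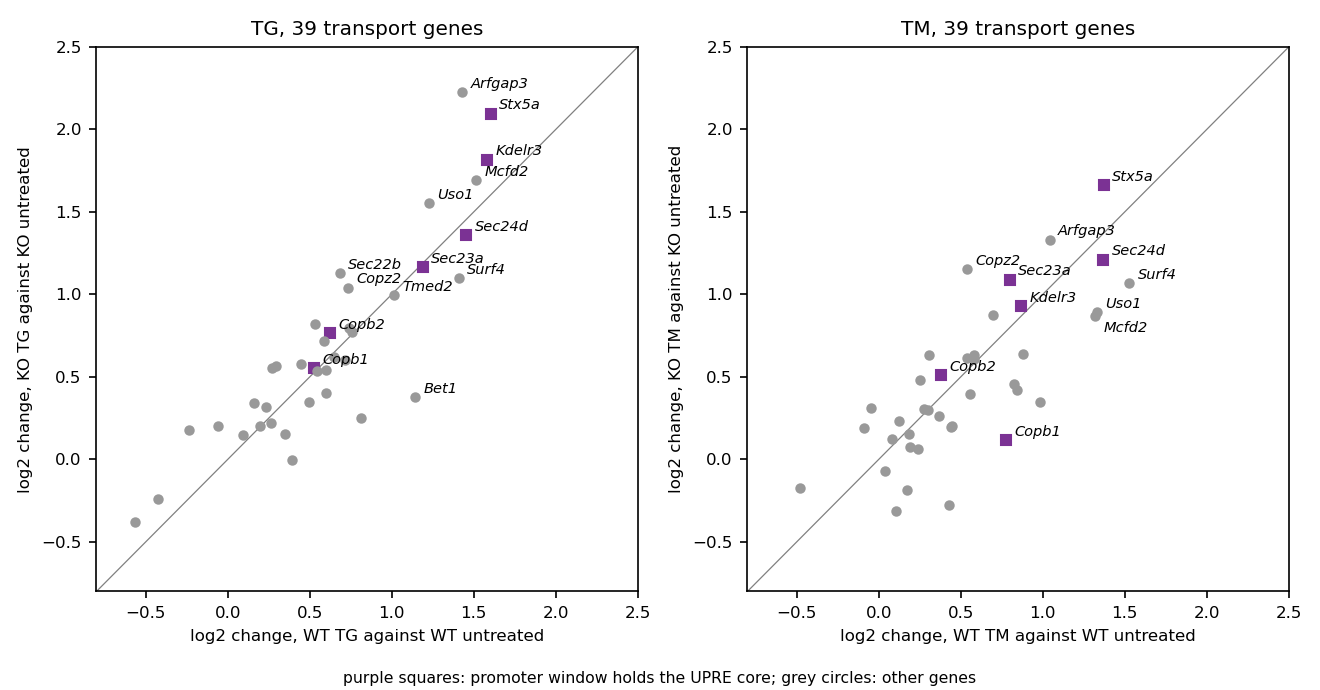
Log2 change of each of the 39 transport genes under TG (left) and TM (right), with WT cells on the horizontal axis and KO cells on the vertical axis, and a grey line of equal change. Genes with the UPRE core in their promoter window are purple squares, and under TG they run from 0.56 for Copb1 to 2.10 for Stx5a in KO cells and from 0.53 to 1.6 for the same genes in WT cells.

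The 6 measured genes with the UPRE core had a median log2 change of 1.26 in KO TG, 1.01 in KO TM, 1.32 in WT TG and 0.84 in WT TM. For the 26 measured genes with a window and no core the medians were 0.54, 0.37, 0.57 and 0.43. Calls were made in 3 of 6 genes with the core and 5 of 26 without it in KO TG, and the same numbers in WT TG. Outside the transport genes, 94 kept genes held the core, and 8 of them (8.51%) were called higher in KO TG and 6 (6.38%) in WT TG, against 2.99% and 2.13% of 10616 genes without it. Under TM the shares were 4.26% and 1.84% in KO cells and 3.19% and 1.55% in WT cells, with and without the core. The median log2 change of the 94 genes was -0.00 in KO TG, 0.03 in KO TM, 0.08 in WT TG and 0.09 in WT TM, against -0.02, -0.01, -0.00 and -0.00 for the genes without it. Surf4, Mcfd2, Uso1 and Arfgap3 were called in both genotypes under TG without the core in the window searched, which says nothing of other sequence.

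The study's own comparison, KO against WT cells in each condition, gave 1 call among the transport genes. The study's table lists Golt1b, Rab6, Sec22b and Arf6 as lower in KO cells under OGD or TM. Its fold changes for these genes are under 2-fold, apart from Rab6 under OGD at 2-fold. Most of them could therefore not meet the 2-fold rule used here. It also reports qPCR for Rab6 and Golt1b, which was not examined here. Of 39 genes, 0 were called in untreated cells (3.77% of all genes), 0 under GD (3.60%), 0 under OD (3.87%), 1 under OGD (5%), 0 under TG (4.95%) and 0 under TM (5.64%). At an unadjusted p under 0.05 there were 6, 5, 6, 10, 9 and 10 of 39, in the same order, against 17.6%, 17.1%, 18.9%, 23.8%, 21.8% and 22.9% of all genes. At the adjusted p alone there were 2 in untreated cells (6.23% of all genes), 2 under GD (5.95%), 2 under OD (6.62%), 3 under OGD (9.79%), 2 under TG (9.30%) and 2 under TM (10.3%). These counts lay near the shares over all genes. KO against WT was read on the same chips in untreated, GD, TG and TM cells, whereas under OD and OGD chip and genotype cannot be told apart.

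Arf6 was the called gene. Arf6 is an Arf GTPase of the cell surface and endosomes rather than of the ER-Golgi step. Its intensity was 3037 and 4455 in KO OGD against 6622 and 12920 in WT OGD, and 3508 and 4469 in untreated KO cells against 6733 and 8373 in untreated WT cells. It was 4863 and 4888 in KO GD against 6870 and 6773 in WT GD, and 4430 and 5246 in KO OD against 6766 and 8184 in WT OD. Across all conditions the 12 KO arrays ran from 3037 to 6352 and the 12 WT arrays from 6622 to 12920, so the genotypes did not overlap.

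The Arf6 difference was -1.33 in OGD (SE 0.247, adjusted p 0.00298), -0.92 in untreated cells (adjusted p 0.0436) and -0.88 in TM (adjusted p 0.0378), with -0.48, -0.63 and -0.65 in GD, OD and TG not past the test. The OGD call was lost without KO OGD replicate 1 (adjusted p 0.0554) or without WT OGD replicate 2 (0.0406 with under 2-fold change), and in a fit of the 4 OGD arrays alone (0.387). WT OGD replicate 2 was the highest of all Arf6 arrays, and the WT OGD duplicates were the least alike of any group (r = 0.955 over kept probes, against 0.994 for WT TG). The KO minus WT difference in the OGD response was -0.41 (95% interval -1.15 to 0.34). In the study's table the Arf6 change is larger under TM than under OGD, the reverse of the order here.

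**Figure D5:**
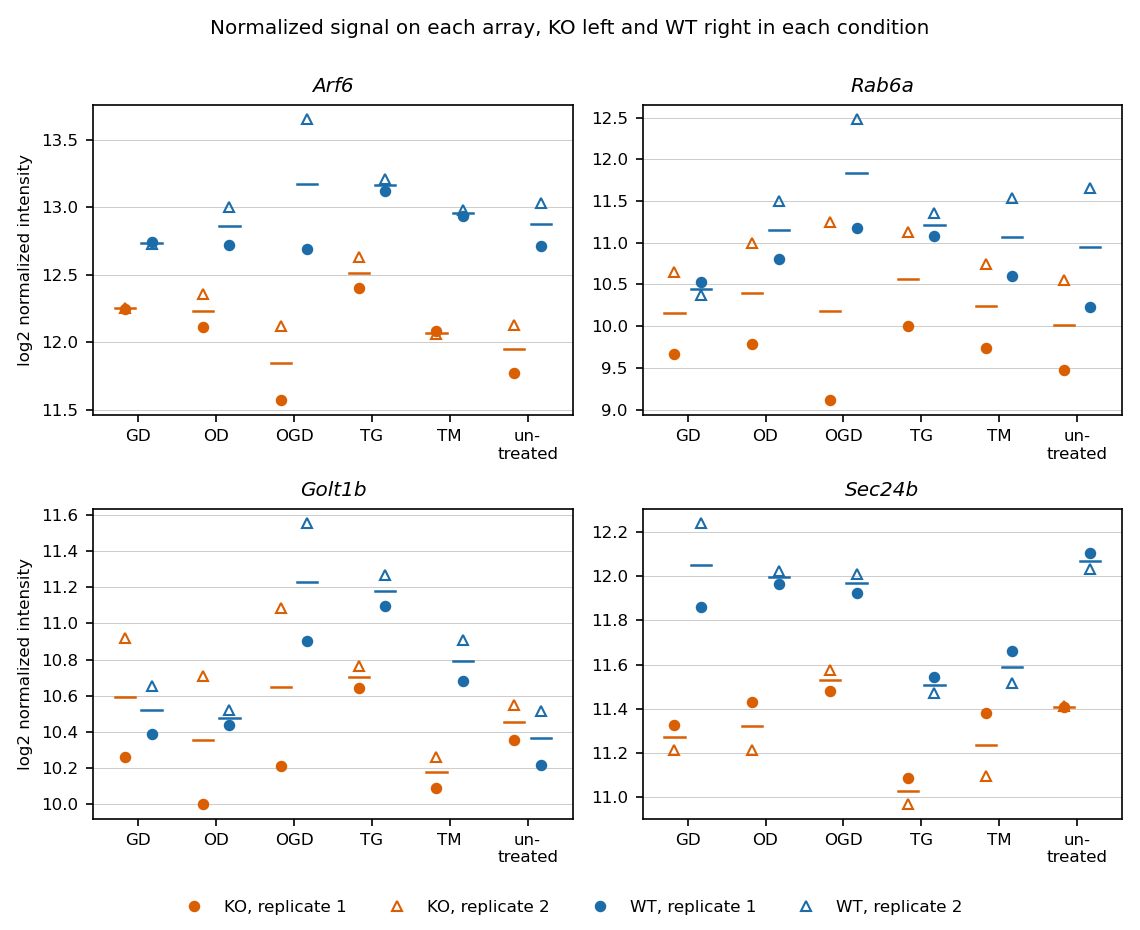
Normalized log2 intensity of Arf6, Rab6a, Golt1b and Sec24b on each array, by condition, KO left and WT right, with filled circles for replicate 1, open triangles for replicate 2 and a line at the mean. For Arf6 every KO array, at most 6352 in linear units, is below every WT array, at least 6622, and for Rab6a the KO duplicates lie far apart.

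Rab6a, a Rab of Golgi-to-ER retrograde transport, had 552 and 2428 in KO OGD against 2315 and 5741 in WT OGD, and 710 and 1498 in untreated KO cells against 1205 and 3223 in untreated WT cells. Replicate 1 was below replicate 2 in each of these groups, and the genotypes overlapped. The difference of -1.66 under OGD was not called (SE 0.717, adjusted p 0.199), while the replicate block called it (SE 0.348, adjusted p 0.00425). Of 3 other kept Rab6a probes, all dimmer, the OGD difference was -0.40, -0.49 and 0.06.

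Golt1b, a Golgi transport membrane protein, had 1186 and 2170 in KO OGD against 1916 and 3013 in WT OGD, and 1092 and 1227 in KO TM against 1642 and 1920 in WT TM. In untreated cells it had 1310 and 1500 in KO against 1189 and 1467 in WT. Its differences of -0.58 in OGD and -0.62 in TM did not pass the test (SE 0.295, adjusted p 0.288 and 0.275), and 0.09 in untreated cells was smaller than the spread of the duplicates.

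Sec24b was lower in KO cells at the adjusted p alone in 4 conditions, by less than 2-fold. It had 2716 and 2727 in untreated KO cells against 4398 and 4193 in untreated WT cells, and 2573 and 2374 in KO GD against 3721 and 4844 in WT GD. The difference was -0.66 in untreated cells, -0.78 in GD, -0.67 in OD and -0.48 in TG (SE 0.137, adjusted p 0.00898, 0.00247, 0.00728 and 0.0459). Sec22b was lower in KO cells in OD (-0.87, adjusted p 0.00144) and OGD (-0.69, adjusted p 0.00735), with 4790 and 4581 in KO OD against 8070 and 9063 in WT OD. The second Sec22b probe gave -0.32 in OD and 0.26 in OGD, neither past the test. Under TG the first probe read close values, 12330 and 10740 in KO against 10780 and 11760 in WT.

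Tmed10 was lower in KO OGD (-0.48, adjusted p 0.0271) and KO TM (-0.45, adjusted p 0.0363) than in the matching WT groups, and Bet1 in KO TG (-0.68, adjusted p 0.0267). Copz1 was higher in KO GD than in WT GD (0.54, adjusted p 0.0177), with 9335 and 7805 against 6265 and 5499. All other genes missed the test in all 6 conditions.

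Whether the response itself differed between genotypes was tested as KO minus WT. No transport gene was called for any stress: 0 of 39 under GD (0% of all genes), OD (0%), OGD (0.0225%), TG (0.480%) and TM (0.622%), and at an unadjusted p under 0.05 there were 0, 1, 0, 2 and 2, against 0.764%, 1.15%, 5.72%, 7.97% and 8.47% of all genes. For TG, TM and GD a chip shift common to both genotypes cancels in this difference. For Stx5a it was 0.49 in TG (95% interval -0.15 to 1.14) and 0.29 in TM (-0.35 to 0.94), and for Sec24d -0.10 (-1.07 to 0.88) and -0.16 (-1.13 to 0.81). For Arfgap3 it was 0.80 in TG (-0.32 to 1.91), for Mcfd2 0.18 in TG (-0.41 to 0.77) and -0.45 in TM (-1.03 to 0.14). Intervals of this width do not show that the genotypes responded alike.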

How the data were processed

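Total RNA was labelled and hybridized to 24 Illumina Mouse-6 BeadChip arrays. The authors deposited linear normalized intensity values made with GenomeStudio (version not given in the sources used here), with no background subtracted. Values of equal rank spanned a median of 0.0816% and at most 4.48% of their median across the arrays. A table of non-normalized intensities was not used, because none of its 48 column names could be tied to a sample. Log2 was taken of the deposited intensities, and the power of each comparison is limited by the number of replicates, 2 per group.

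The background distribution was read from the lower side of the intensities (mode 181), and probes above 232, the upper 0.01 tail, on 1 array or more were retained. This kept 26933 of 45281 probes (59.5%). Probes with several gene names (18) named no gene, and 34885 had 1. Each gene was represented by its probe with the highest mean log2 signal. There were 22 other kept probes in 13 of the kept transport genes, Gosr2, Copz2, Cope, Copz1 and Tmed10 among them. These are described here only for Sec24d, Stx5a, Sec22b and Rab6a. One limma fit (version 3.58.1, R 4.3.3) of 12 group means without covariates, checked on simulated data, gave all comparisons, with 12 residual and 3.42 prior degrees of freedom. A fold change compares geometric means, and dim genes are understated because background remains in the values.

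Same-numbered arrays of different groups deviated from their group means together in 66 of 66 pairs of groups (r 0.135 to 0.762, median 0.375). The replicate numbers of the labels were therefore taken to pair the arrays. The fit with the replicate number as a block is given where it changes a call. All other counts, SEs, adjusted p and intervals ignore this pairing, which widens the SE of genes whose replicates shift together, such as Sec23a and Rab6a. Arrays were left out only in fits without the block. Alternatives covered the probe filter, background correction, averaging of probes, arrays in the fit, array weights, the block, the call rule and each array left out. Promoter windows and gene positions are those of RefSeq (GRCm38.p6). Named were all called genes, the 3 largest changes where fewer than 3 were called, and Golt1b, Rab6a, Sec22b and Arf6, which the study's table lists. The members and lists were chosen with earlier results of these data known.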

Additional observations from a re-analysis of the deposited data

How the results depend on the processing

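No call reversed its direction under any alternative run. Golt1b, Rab6a, Sec22b and Arf6 were also followed for KO against WT under OGD and TM, where a change of sign counted only if called. Other uncalled changes were not checked for direction. The counts of called genes stayed within 1.5 times under the looser background level, the mean of all kept probes, no filter on dim probes and the normexp correction. Single genes still lost calls: 5 with the mean of all kept probes, that of Sec22b among them, and 1 each with the looser level and with no filter. Of the called genes, only Sec24d, Stx5a and Sec22b had a second kept probe to average. With the adjusted p alone, genes higher numbered 13 in KO TG, 6 in KO TM, 13 in WT TG, 10 in WT TM and 1 in WT OGD, genes lower 1 in WT TG and 1 in WT OGD, and genes different between KO and WT 2 in untreated, GD, OD, TG and TM cells and 3 in OGD, with 2 in WT OGD against WT OD. Where 2-fold and an unadjusted p up to 0.05 sufficed, they numbered 1 in KO OGD, 5 in KO TM, 1 in WT OD, 1 in WT OGD and 2 for KO against WT in OGD. In the fit of the compared arrays alone, which has fewer arrays, they numbered 5 in WT TG, 1 in WT TM and 0 for KO against WT in OGD. Array weights gave 5 in KO TM, and the filter that asks for both arrays of a group gave 1 in WT OGD. The KO OD arrays in place of the untreated KO arrays gave 1 in KO TM.

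With the replicate number as a block, the number called was 1 in KO OGD, 5 in KO TM, 1 in WT OGD and 2 for KO against WT in OGD. The block added the calls of Arfgap3, Sec23a, Kdelr3 and Rab6a given with those genes and changed no other call.

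With single arrays left out, genes higher ranged from 4 to 7 in KO TG, 1 to 2 in KO TM, 3 to 7 in WT TG, 2 to 6 in WT TM and 0 to 1 in WT OGD. Genes called ranged from 0 to 2 for KO against WT in OGD and from 0 to 1 for WT OGD against WT OD. The lowest counts came without KO TG replicate 1 (4), without KO untreated replicate 1 or either KO TM array (1), without WT TG replicate 1 or WT untreated replicate 2 (3), and without WT TM replicate 1 or WT untreated replicate 2 (2). The cause was not tested. With 2 arrays per group, a change near 2-fold is often missed, and Kdelr1, Arf4, Yipf5 and Copb1, close to background, allow no reading of small changes.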

Other observations

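Other genes of the ER-Golgi pathway, 103 listed beside the 42 and 88 of them kept, had smaller changes. The median log2 change was 0.14 in KO TG, 0.16 in KO TM, 0.17 in WT TG and 0.11 in WT TM. Called higher were 7 of 88 in KO TG (3.02% of all genes), 1 in KO TM (1.82%), 3 in WT TG (2.11%) and 0 in WT TM (1.56%). Scfd1, the Sec1 family partner of Stx5a, rose by 1.48 in KO TG and 1.33 in WT TG (SE 0.198, limma adjusted p 0.000188 and 0.000781). Stx18, the syntaxin that receives COPI vesicles at the ER, rose by 1.21 and 1.05 (adjusted p 0.000193 and 0.00107). Use1, a partner SNARE of Stx18, rose by 1.15 in KO TG, 1.16 in KO TM and 1.21 in WT TG (SE 0.240). Trappc1, a subunit of the TRAPP tether, fell by 1.79 in KO TG and by 1.40 in WT TG on the log2 scale (SE 0.189, adjusted p 1.9e-05 and 0.000355).

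Arf3, a close relative of Arf1, was higher in KO than in WT cells, the opposite of Arf6. The difference was 1.17 in GD, 1.47 in OD, 1.53 in OGD and 1.01 in TG (SE 0.221, adjusted p 0.00459, 0.000566, 0.000364 and 0.00902), while 0.95 in untreated cells and 0.92 in TM passed the adjusted p under 2-fold (0.0191 and 0.0150). Among 8 regulators of the secretory pathway, Creb3l2, a transcription factor that drives COPII genes in cartilage, was called in KO TG (1.02) and not in WT TG (0.65). The KO minus WT difference in that response was 0.37 (SE 0.308) and did not pass the test.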
